A study of Homo sapiens with 8 samples.

Results

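The genes described here serve protein folding and quality control in the endoplasmic reticulum (ER), and they comprise its chaperones, the machinery of ER-associated degradation (ERAD) and the sensors of the unfolded protein response (UPR). They form a list of 46 human genes picked by name and function, with earlier results of these arrays already known. Of these, 43 had a probe set of their own on the array and all 43 were bright enough to be tested, among 13584 genes tested in all. PDIA5, TXNDC5 and SYVN1 were represented by probe sets that the annotation assigns to several genes, and they were not analysed here. The 43 genes held 102 probe sets, of which 94 passed the filter on dim signal.

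The study measured RNA on 8 Affymetrix arrays of A549 cells, a human lung adenocarcinoma line with epithelial traits. The 4 groups of 2 arrays crossed siRNA with medium: SRC-1 siRNA with or without glucose in the medium, and control siRNA with or without it. SRC-1 is the steroid receptor coactivator encoded by NCOA1, and the series asks how it ties into glucose and NAD+/NADH homeostasis. All cells were transfected with DharmaFECT 1 and kept for 36 hours in medium with 10% dialyzed serum, which holds little free glucose, before the step in DMEM that did or did not contain glucose. The labels do not give the length of that step. Both arrays of a group are labelled as biological replicates, with nothing further said of the cultures, and the p-values reflect only how far these arrays differ.

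The lumen of the ER folds, glycosylates and oxidizes proteins bound for the surface or for secretion. Glucose feeds the N-linked glycans that many of these proteins need, and glucose starvation is a classical trigger of the UPR, which gave the glucose-regulated proteins GRP78 and GRP94 their names. Membrane sensors read the load of unfolded protein. IRE1 (ERN1) splices the XBP1 transcript, ATF6 is cut in the Golgi to free a transcription factor, and PERK (EIF2AK3) phosphorylates the initiation factor eIF2 and so favours translation of ATF4. XBP1 and cleaved ATF6 then act on promoters of chaperone and ERAD genes through the ER stress response elements, and ATF4 acts through amino acid response elements.

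The promoters are shown first because the UPR acts through these elements, and the size of each member's change is set against them further on. RefSeq windows of 250 bases before to 50 bases after the gene start (assembly GRCh38.p14) were at hand for 42 of the 46 genes, the exceptions being PDIA3, DERL1, DERL3 and FKBP14. Both strands were searched for 4 motifs. The ER stress response element (ERSE, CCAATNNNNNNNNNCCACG) lay in 7 of the 42 windows (16.7%) and in 22 of 27305 windows of all genes (0.0806%). Its variant ERSE-II (ATTGGNCCACG) lay in 3 windows (7.14%), against 15 windows of all genes (0.0549%). The XBP1 and ATF6 site TGACGTGG, known as the UPR element, lay in 4 windows (9.52%), against 0.795% of all windows. The ATF4 element TGATGCAA lay in the HERPUD1 window only (2.38%), against 0.923% of all windows. One of the matches to the UPR element, in HYOU1, overlapped an ERSE-II match. A match describes these letters and is not a measured binding site.

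The ERSE matches are given 5′ to 3′ on the strand that carries the motif, with the motif in capitals and up to 10 flanking bases in lower case, in the order of the glucose change under control siRNA. The coordinates are those of the motif, and the words gene strand or opposite strand tell how it is turned relative to the gene.
CRELD2, chr22:49918554-49918572, opposite strand: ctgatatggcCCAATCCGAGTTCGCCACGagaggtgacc
ERO1B, chr1:236282183-236282201, opposite strand: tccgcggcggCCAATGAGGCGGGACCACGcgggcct
HSPA5, chr9:125241391-125241409, gene strand: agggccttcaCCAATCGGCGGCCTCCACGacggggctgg
HSP90B1, chr12:103930216-103930234, gene strand: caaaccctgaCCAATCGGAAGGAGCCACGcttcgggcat
HSP90B1, chr12:103930321-103930339, opposite strand: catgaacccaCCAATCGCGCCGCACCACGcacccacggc
XBP1, chr22:28800603-28800621, gene strand: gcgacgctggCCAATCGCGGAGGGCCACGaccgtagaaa
CALR, chr19:12938384-12938402, opposite strand: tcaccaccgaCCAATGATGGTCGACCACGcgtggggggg
CANX, chr5:179698778-179698796, gene strand: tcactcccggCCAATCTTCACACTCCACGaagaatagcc

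The ERSE-II matches follow in the same form.
HYOU1, chr11:119057380-119057390, opposite strand: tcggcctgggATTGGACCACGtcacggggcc
HYOU1, chr11:119057274-119057284, opposite strand: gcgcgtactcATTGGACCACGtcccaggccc
SDF2L1, chr22:21642114-21642124, opposite strand: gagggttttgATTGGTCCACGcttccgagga
HERPUD1, chr16:56932025-56932035, gene strand: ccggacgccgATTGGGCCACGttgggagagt

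Whole windows are shown for CRELD2, the member that changed most, and for HSPA5, the textbook ERSE gene. They run 5′ to 3′ on the gene's strand, with the exact match to the motif in capitals. Near matches were not searched for or marked. The upstream end of the motif lay 80 bases before the gene start in CRELD2 and 66 bases before it in HSPA5.
CRELD2, chr22:49918384-49918683, + strand: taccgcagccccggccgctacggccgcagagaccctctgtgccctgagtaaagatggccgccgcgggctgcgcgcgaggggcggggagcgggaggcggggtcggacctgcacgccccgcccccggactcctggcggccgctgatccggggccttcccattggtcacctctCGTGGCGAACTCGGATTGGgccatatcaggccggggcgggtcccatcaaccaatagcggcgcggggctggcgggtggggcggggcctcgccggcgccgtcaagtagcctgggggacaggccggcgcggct
HSPA5, chr9:125241294-125241593, - strand: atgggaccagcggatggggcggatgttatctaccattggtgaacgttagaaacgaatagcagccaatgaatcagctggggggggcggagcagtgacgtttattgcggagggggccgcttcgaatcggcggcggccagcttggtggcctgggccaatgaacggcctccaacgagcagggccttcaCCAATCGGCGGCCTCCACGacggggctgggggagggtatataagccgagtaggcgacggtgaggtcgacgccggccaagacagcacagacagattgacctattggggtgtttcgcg

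On all arrays the cells carried the expression of the line. The 6 epithelial markers averaged 8.09 to 14.3 log2 units, and AKR1C1, AKR1B10 and ALDH1A1, which A549 cells make in large amounts, averaged 14.1 to 14.4. Markers of blood, endothelial and connective tissue cells averaged 3.05 to 7.88, and 4 of the 6 measured passed the filter, COL1A1 being the brightest. The array medians lay between 4.97 and 5.01. NCOA1, the gene targeted, fell on all 4 of its probe sets in both media. On its brightest probe set it was 9.10-fold lower with glucose and 8.78-fold lower without glucose in SRC-1 siRNA cells than in control siRNA cells.

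Nearly the whole set was lower with glucose. In this comparison 39 of the 43 genes were lower in SRC-1 siRNA cells and 40 of 43 were lower in control siRNA cells with glucose than without, and 0 were higher in either (limma, adjusted p under 0.05). Over all genes tested, 19.3% were lower and 23.7% higher with glucose in SRC-1 siRNA cells, and 20.7% were lower and 22.8% higher in control siRNA cells. The median log2 difference of the members, with minus without glucose, was -0.99 in SRC-1 siRNA cells and -1.01 in control siRNA cells, where all genes had medians of 0.0059 with SRC-1 siRNA and 0.00088 with control siRNA. At least a 2-fold fall was seen in 21 members with SRC-1 siRNA and in 22 with control siRNA. Of the 136 genes that make up the lowest 1% of all differences, 16 were members in each of the siRNA arms.

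For 41 of the 43 genes, all 4 arrays with glucose lay below all 4 arrays without glucose, a separation seen in 25.3% of all genes. The exceptions were EDEM3 and VCP. The arms with SRC-1 siRNA and with control siRNA share no array, so the fall was seen in separate pairs of groups. In bulk RNA a lower level in each cell and fewer cells with the transcript cannot be told apart. The excess of 3′ over 5′ signal of the GAPDH and beta-actin controls, which grows as RNA degrades, averaged 0.365 log2 units with glucose and 0.305 without (exact permutation test over 4 arrays against 4, two-sided, p = 0.0857, 0.257 adjusted over 6 tests). Its part in the glucose results was not tested.

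**Figure D1:**
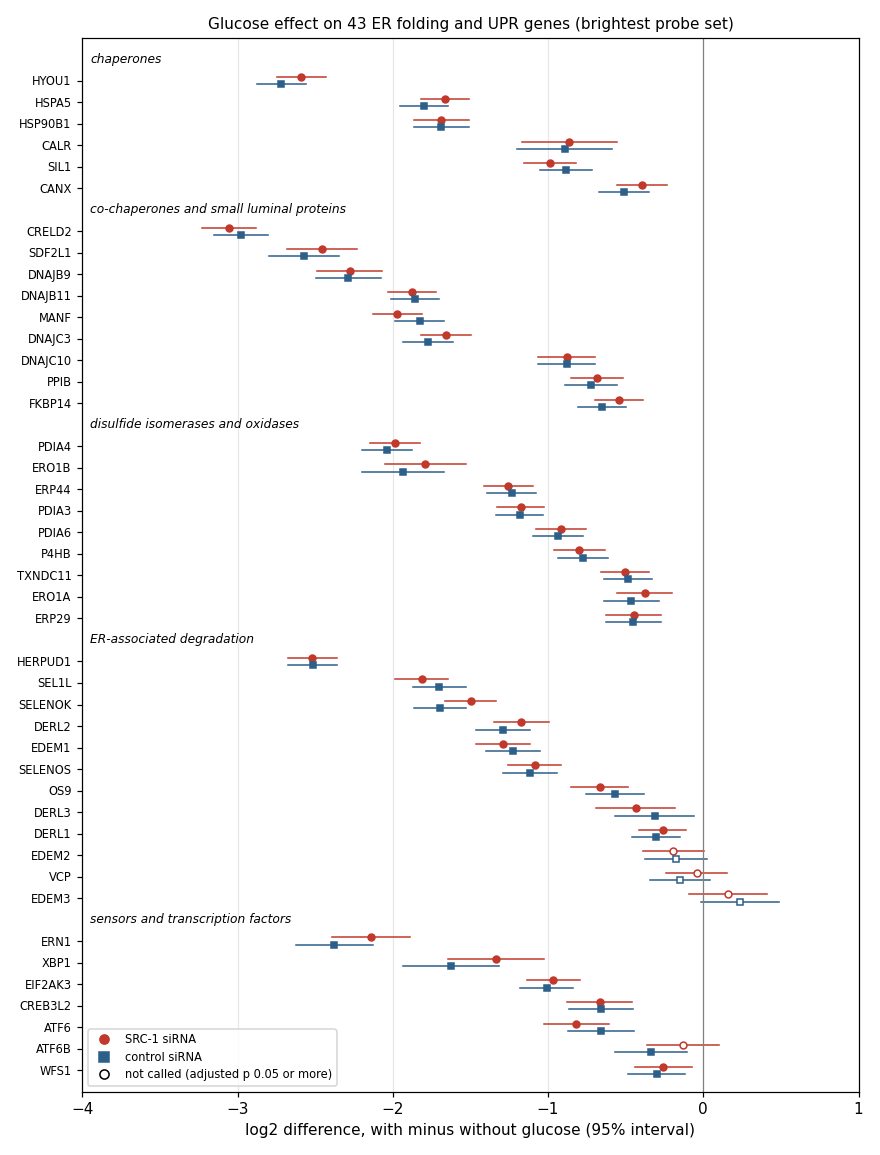
Log2 difference with minus without glucose (x axis) for the 43 genes by role, in SRC-1 siRNA cells (red circles) and control siRNA cells (blue squares), each read from the brightest probe set with 2 arrays a group. Lines are 95% intervals and open symbols were not called. All points lie left of 0 except both points of EDEM3, and those of CRELD2 lie furthest left, at -3.05 with SRC-1 siRNA and -2.98 with control siRNA.

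The chaperones proper came down as a group, 6 of 6 in each arm, with a median log2 difference of -1.33 with SRC-1 siRNA and -1.29 with control siRNA. HYOU1 (GRP170), a large HSP70-like chaperone that also exchanges the nucleotide of BiP, changed most among them. In SRC-1 siRNA cells its log2 signal was 8.43 and 8.50 with glucose, against 11.04 and 11.07 without. In control siRNA cells it was 8.37 and 8.38 with glucose, against 11.11 and 11.07 without. The groups stood far apart with 2 arrays each, and the falls came to 6.02-fold with SRC-1 siRNA and 6.58-fold with control siRNA (log2 difference -2.59 ± 0.0680 with SRC-1 siRNA and -2.72 ± 0.0680 with control siRNA, SE, limma adjusted p = 4.01e-07 with SRC-1 siRNA and 3.48e-07 with control siRNA).

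HSPA5 (BiP, GRP78), the main HSP70 of the ER lumen and the protein that holds the UPR sensors inactive, had 2 probe sets. On the brighter one the log2 signal was 12.77 and 12.74 with glucose, against 14.38 and 14.46 without, in SRC-1 siRNA cells. In control siRNA cells it was 12.61 and 12.62 with glucose, against 14.42 and 14.41 without. The arrays with glucose were all lower, by 3.17-fold with SRC-1 siRNA and 3.48-fold with control siRNA. On the dimmer probe set the signal was 7.83 and 7.73 with glucose, against 10.70 and 10.62 without, in SRC-1 siRNA cells, and 7.73 and 7.69 with glucose, against 10.60 and 10.80 without, in control siRNA cells. There the fall was larger, 7.37-fold with SRC-1 siRNA and 7.94-fold with control siRNA (log2 difference -2.88 ± 0.0870 with SRC-1 siRNA and -2.99 ± 0.0870 with control siRNA, SE). Without glucose the brighter probe set stood 0.22 to 0.30 log2 units below the brightest signal on its array, and with glucose 1.91 to 2.06 below it. The part of this nearness to the top of the scale in the smaller difference was not tested.

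HSP90B1 (GRP94), the HSP90 of the ER, was 3.22-fold lower in SRC-1 siRNA cells and 3.22-fold lower in control siRNA cells. The lectin chaperone CALR, which binds monoglucosylated glycans in the lumen, had a log2 difference of -0.86 ± 0.134 in SRC-1 siRNA cells and -0.89 ± 0.134 in control siRNA cells (SE). Its membrane-bound relative CANX had -0.40 ± 0.0705 with SRC-1 siRNA and -0.51 ± 0.0705 with control siRNA. By brightest probe sets CANX fell least among the 6. Its other probe sets ran from -0.99 to -0.59 with SRC-1 siRNA and from -1.07 to -0.61 with control siRNA. Those of CALR ran from -1.49 to -0.39 with SRC-1 siRNA and from -1.67 to -0.55 with control siRNA. SIL1, an exchange factor of BiP, stood at -0.99 ± 0.0732 with SRC-1 siRNA and -0.88 ± 0.0732 with control siRNA.

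Co-chaperones and small luminal proteins fell in 9 of 9 cases in each arm, and the median log2 difference, -1.88 with SRC-1 siRNA and -1.83 with control siRNA, lay below that of any other role. CRELD2, a secreted disulfide-rich protein of the ER stress response, fell more than any other member. Its log2 signal was 9.53 and 9.56 with glucose, against 12.63 and 12.57 without, in SRC-1 siRNA cells. In control siRNA cells it was 9.51 and 9.64 with glucose, against 12.59 and 12.52 without. The 4 arrays of each medium lay close together and far from those of the other medium, a fall of 8.30-fold with SRC-1 siRNA and 7.88-fold with control siRNA (adjusted p = 3.60e-07 with SRC-1 siRNA and 3.48e-07 with control siRNA).

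SDF2L1, a partner of the ER DNAJ proteins that keeps clients from aggregating, showed a similar picture. It measured 8.80 and 8.93 with glucose, against 11.37 and 11.27 without, in SRC-1 siRNA cells, and 8.59 and 8.84 with glucose, against 11.31 and 11.26 without, in control siRNA cells. All 4 arrays with glucose were lower, by 5.49-fold with SRC-1 siRNA and 5.95-fold with control siRNA. MANF, a secreted factor that binds BiP, measured 10.88 and 10.95 with glucose, against 12.87 and 12.91 without, in SRC-1 siRNA cells. Its values in control siRNA cells were 11.01 and 11.02 with glucose, against 12.81 and 12.87 without. These are falls of 3.92-fold with SRC-1 siRNA and 3.55-fold with control siRNA, again with no overlap.

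Among the J-domain proteins, which deliver clients to BiP and stimulate its ATPase, DNAJB9 (ERdj4) moved most. Its signal was 9.88 and 9.66 with glucose, against 12.03 and 12.07 without, in SRC-1 siRNA cells, and 9.78 and 9.65 with glucose, against 12.03 and 11.97 without, in control siRNA cells. The fall was 4.85-fold with SRC-1 siRNA and 4.88-fold with control siRNA and stood on all 3 of its probe sets. DNAJB11 (ERdj3) measured 10.59 and 10.66 with glucose, against 12.52 and 12.48 without, in SRC-1 siRNA cells, and 10.63 and 10.58 with glucose, against 12.45 and 12.48 without, in control siRNA cells. DNAJC3 (p58IPK), which also restrains PERK, measured 9.70 and 9.63 with glucose, against 11.29 and 11.35 without, in SRC-1 siRNA cells, and 9.52 and 9.59 with glucose, against 11.32 and 11.33 without, in control siRNA cells. Neither gene's media overlapped, and the falls were 3.67-fold with SRC-1 siRNA and 3.63-fold with control siRNA for DNAJB11 and 3.15-fold with SRC-1 siRNA and 3.41-fold with control siRNA for DNAJC3. By brightest probe set DNAJC10 (ERdj5), a disulfide reductase that readies ERAD clients, changed less. Its log2 difference was -0.88 in SRC-1 siRNA cells and -0.88 in control siRNA cells. Its other probe sets ran from -1.43 to -0.30 with SRC-1 siRNA and from -1.52 to -0.46 with control siRNA. The prolyl isomerases, which speed collagen folding, lay at the small end, with -0.69 with SRC-1 siRNA and -0.72 with control siRNA for PPIB and -0.54 with SRC-1 siRNA and -0.65 with control siRNA for FKBP14.

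**Figure D2:**
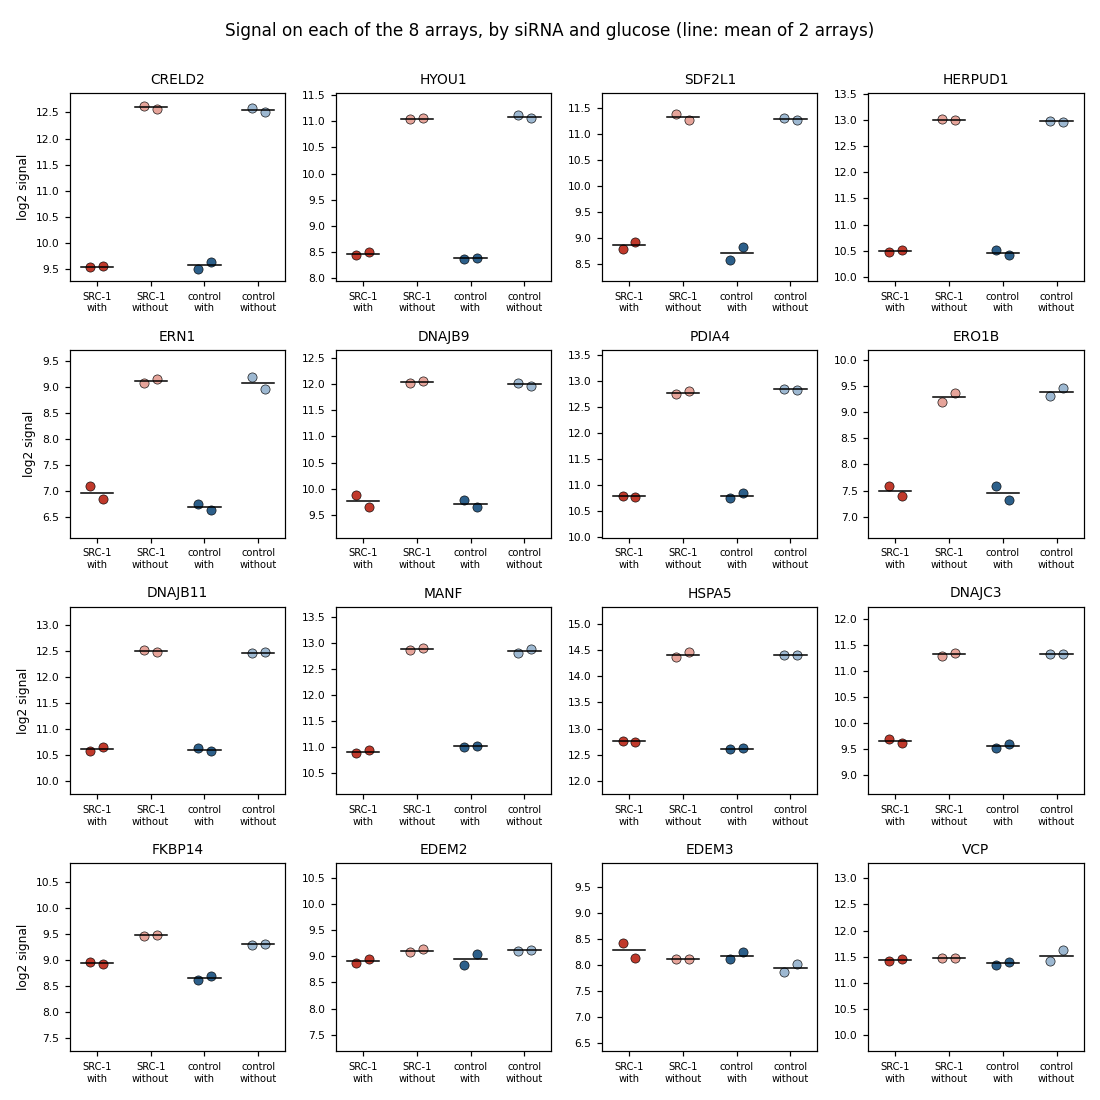
Log2 signal (y axis, each panel spanning 3.6 units) on each of the 8 arrays for the 12 members with the largest glucose change under control siRNA, for FKBP14 and for the 3 members not called there. Points are arrays, lines are means of 2, and groups run from SRC-1 siRNA with glucose to control siRNA without glucose. In the first 12 panels the arrays with glucose lie well below those without in both siRNA arms, and in the panels of EDEM3 and VCP the ranges of the 4 arrays of each medium overlap.

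The disulfide isomerases and oxidases fell in 9 of 9 measured cases in each arm, by a median log2 difference of -0.92 with SRC-1 siRNA and -0.94 with control siRNA, with 4 members past 2-fold in each. PDIA4 (ERp72), a multidomain isomerase, led. Its signal was 10.79 and 10.78 with glucose, against 12.74 and 12.80 without, in SRC-1 siRNA cells, and 10.75 and 10.85 with glucose, against 12.84 and 12.83 without, in control siRNA cells. The media did not overlap, and the falls were 3.96-fold with SRC-1 siRNA and 4.11-fold with control siRNA. The ERO1 oxidases reload the isomerases with disulfides. ERO1B measured 7.59 and 7.40 with glucose, against 9.21 and 9.37 without, in SRC-1 siRNA cells, and 7.58 and 7.33 with glucose, against 9.31 and 9.46 without, in control siRNA cells. All 4 arrays with glucose were lower, by 3.46-fold with SRC-1 siRNA and 3.82-fold with control siRNA. ERO1A, its more widely expressed paralog, fell only 1.30-fold with SRC-1 siRNA and 1.38-fold with control siRNA, and on 1 of its 3 probe sets the log2 difference was 0.13 with SRC-1 siRNA (adjusted p = 0.276) and 0.20 with control siRNA (adjusted p = 0.103). That probe set alone stands for ERO1A where the _s_at and _x_at probe sets are left out, and the gene is then not called. The difference between the paralogs was not tested.

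The classical isomerases P4HB (PDI), PDIA3 (ERp57, the partner of CALR and CANX) and PDIA6 are among the brighter members. Their log2 differences were -0.80 with SRC-1 siRNA and -0.77 with control siRNA for P4HB, -1.18 with SRC-1 siRNA and -1.18 with control siRNA for PDIA3 and -0.92 with SRC-1 siRNA and -0.94 with control siRNA for PDIA6. On the other probe sets of P4HB the log2 difference ran from -1.17 to -0.95 with SRC-1 siRNA and from -1.46 to -1.18 with control siRNA. ERP44, which returns ERO1 and other clients from the Golgi, fell by 2.39-fold with SRC-1 siRNA and 2.35-fold with control siRNA. ERP29 (-0.45 with SRC-1 siRNA and -0.45 with control siRNA) and TXNDC11 (-0.51 with SRC-1 siRNA and -0.49 with control siRNA) were called lower with smaller log2 differences.

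Of the ERAD genes 9 of 12 measured were lower in each arm, with a median log2 difference of -0.88 with SRC-1 siRNA and -0.84 with control siRNA, and this is the role with the widest range. HERPUD1, a short-lived scaffold of the HRD1 ubiquitin ligase complex, changed most. It measured 10.47 and 10.52 with glucose, against 13.02 and 13.00 without, in SRC-1 siRNA cells. In control siRNA cells it measured 10.51 and 10.41 with glucose, against 12.98 and 12.98 without. The fall was 5.73-fold with SRC-1 siRNA and 5.72-fold with control siRNA and the media did not overlap. SEL1L, the adaptor that stabilizes that ligase, fell by 3.52-fold with SRC-1 siRNA and 3.25-fold with control siRNA on its brightest probe set, and was called on all 4. SELENOK and SELENOS, selenoproteins that link the ligase to the extraction machinery, had log2 differences of -1.50 with SRC-1 siRNA and -1.70 with control siRNA for SELENOK and of -1.09 with SRC-1 siRNA and -1.12 with control siRNA for SELENOS.

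Within ERAD, members of the same family had changes of different size, and these differences between genes were not tested. Among the derlins, membrane proteins of the export route, DERL2 fell by 2.26-fold in SRC-1 siRNA cells and 2.45-fold in control siRNA cells. By brightest probe set DERL1 fell by 1.20-fold with SRC-1 siRNA and 1.24-fold with control siRNA. The dim DERL3 fell by 1.35-fold with SRC-1 siRNA and 1.24-fold with control siRNA. Another DERL1 probe set was nearly as bright, with a mean log2 signal of 10.74 against 10.75. It averaged 10.45 with glucose and 11.04 without in SRC-1 siRNA cells. In control siRNA cells it averaged 10.39 with glucose and 11.08 without. On the other DERL1 probe sets the log2 difference ran from -0.60 to 0.04 with SRC-1 siRNA and from -0.87 to -0.16 with control siRNA. Among the mannosidase-like proteins that mark glycoproteins for disposal, EDEM1 fell by 2.44-fold with SRC-1 siRNA and 2.34-fold with control siRNA. EDEM2 measured 8.88 and 8.95 with glucose, against 9.08 and 9.13 without, in SRC-1 siRNA cells, and 8.83 and 9.05 with glucose, against 9.11 and 9.13 without, in control siRNA cells. Its arrays with glucose were all lower, but by a log2 difference of only -0.19 ± 0.0866 with SRC-1 siRNA and -0.18 ± 0.0866 with control siRNA (SE, adjusted p = 0.107 with SRC-1 siRNA and 0.136 with control siRNA). EDEM3 measured 8.43 and 8.13 with glucose, against 8.12 and 8.12 without, in SRC-1 siRNA cells, and 8.11 and 8.25 with glucose, against 7.87 and 8.03 without, in control siRNA cells. Its log2 difference was 0.16 ± 0.110 with SRC-1 siRNA and 0.24 ± 0.110 with control siRNA (SE, adjusted p = 0.282 with SRC-1 siRNA and 0.119 with control siRNA), the only member above 0, with 95% intervals of -0.09 to 0.41 with SRC-1 siRNA and -0.02 to 0.49 with control siRNA. OS9, a lectin that hands over EDEM products, was 1.59-fold lower with SRC-1 siRNA and 1.48-fold lower with control siRNA.

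VCP, the ATPase that pulls clients out of the membrane and also serves much of the cytosol and nucleus, had probe sets of opposite sign, and its dimmer one was the probe set of the members that was called higher. On the brighter one it measured 11.41 and 11.45 with glucose, against 11.48 and 11.47 without, in SRC-1 siRNA cells, and 11.34 and 11.40 with glucose, against 11.41 and 11.63 without, in control siRNA cells. The log2 difference was -0.04 ± 0.0854 with SRC-1 siRNA and -0.15 ± 0.0854 with control siRNA (SE, adjusted p = 0.724 with SRC-1 siRNA and 0.198 with control siRNA). On the dimmer one it measured 10.58 and 10.63 with glucose, against 10.32 and 10.31 without, in SRC-1 siRNA cells, and 10.53 and 10.63 with glucose, against 10.30 and 10.38 without, in control siRNA cells. There all arrays with glucose were higher, by 0.28 ± 0.0728 log2 units with SRC-1 siRNA and 0.25 ± 0.0728 with control siRNA (SE, adjusted p = 0.0131 with SRC-1 siRNA and 0.0239 with control siRNA). VCP was therefore counted as not called, by its brighter probe set.

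The sensors and their transcription factors were lower with glucose in 6 of 7 cases with SRC-1 siRNA and 7 of 7 with control siRNA, with median log2 differences of -0.82 with SRC-1 siRNA and -0.66 with control siRNA. The transcript of ERN1 (IRE1 alpha), the oldest of the sensors in evolution, changed most. Its brightest probe set measured 7.09 and 6.84 with glucose, against 9.07 and 9.14 without, in SRC-1 siRNA cells. In control siRNA cells it measured 6.76 and 6.63 with glucose, against 9.18 and 8.96 without. The media did not overlap, and the fall was 4.41-fold with SRC-1 siRNA and 5.19-fold with control siRNA. A second probe set fell by 2.35-fold with SRC-1 siRNA and 2.65-fold with control siRNA, and the third and dimmest, with signals between 5.12 and 5.33 on all arrays, did not pass the test.

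XBP1, whose transcript IRE1 splices and which is also a target of ATF6, measured 8.37 and 8.20 with glucose, against 9.48 and 9.76 without, in SRC-1 siRNA cells. In control siRNA cells it measured 7.99 and 8.29 with glucose, against 9.67 and 9.86 without. It fell by 2.52-fold with SRC-1 siRNA and 3.08-fold with control siRNA, and the array does not tell spliced from unspliced transcript here. EIF2AK3 fell by 1.95-fold with SRC-1 siRNA and 2.01-fold with control siRNA, ATF6 by 1.76-fold with SRC-1 siRNA and 1.58-fold with control siRNA, and CREB3L2, a related factor cut in the Golgi, by 1.59-fold with SRC-1 siRNA and 1.58-fold with control siRNA. WFS1, an ER membrane protein that dampens ATF6, fell by 1.20-fold with SRC-1 siRNA and 1.23-fold with control siRNA. ATF6B, the paralog of ATF6, was called in control siRNA cells (log2 difference -0.34 ± 0.101, SE, adjusted p = 0.0258) and not in SRC-1 siRNA cells (-0.13 ± 0.101, adjusted p = 0.333). The difference between the arms was itself not past the test (0.20 ± 0.143, adjusted p = 0.999).

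Some calls near the threshold were lost when a single array was left out. The array could also lie outside the comparison. DERL3 in control siRNA cells lost its call without either SRC-1 siRNA array without glucose, at an unchanged log2 difference of -0.31. With any array left out, 36 to 39 members were lower with SRC-1 siRNA and 37 to 40 with control siRNA. DERL3 in control siRNA cells, at an adjusted p of 0.0493, lost its call without any of 6 of the 8 arrays, at 0.0691 to 0.203. In SRC-1 siRNA cells it lost it without replicate 1 with glucose, at a log2 difference of -0.26 (adjusted p = 0.063), or replicate 2 without glucose (0.0646). WFS1 in SRC-1 siRNA cells lost its call without replicate 1 with glucose (0.162) or either array without glucose (0.155 and 0.0609), and in control siRNA cells without replicate 2 with glucose (0.0793) or replicate 1 without glucose (0.103). ATF6B in control siRNA cells lost its call without either array with glucose (0.0575 and 0.108) or without replicate 1 without glucose, at -0.21 (0.174). DERL1 in SRC-1 siRNA cells lost its call without replicate 2 without glucose (0.0702). EDEM2 in control siRNA cells was called without replicate 2 with glucose, at -0.29 (adjusted p = 0.0346).

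Probe sets of the same gene mostly gave the same direction. Of the 94 probe sets of the members, 81 were lower and 1 was higher in each arm and 12 were not called, where 19.4% of all probe sets were lower with SRC-1 siRNA and 20.9% with control siRNA. Of the 28 genes with more than 1 probe set past the filter, 20 were lower on all of them with SRC-1 siRNA and 19 with control siRNA. The size varied more than the direction. In 16 genes with SRC-1 siRNA and 18 with control siRNA a dimmer probe set fell further than the brightest one, by more than 0.5 log2 units in 5 genes with SRC-1 siRNA and 8 with control siRNA. The largest such gap was that of HSPA5. CALR differed as well, at -1.49 with SRC-1 siRNA and -1.67 with control siRNA on a dimmer probe set. ERP44 went the other way, and its 2 dimmer probe sets gave -0.68 and -0.93 with SRC-1 siRNA and -0.50 and -0.54 with control siRNA. Signs were mixed in ERO1A and VCP in both arms, and with SRC-1 siRNA also in DERL1, with 0.04 on its dimmest probe set, and in EDEM3, with -0.03 on its dimmest. The order of genes by size of fall therefore holds for the brightest probe sets.

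**Figure D3:**
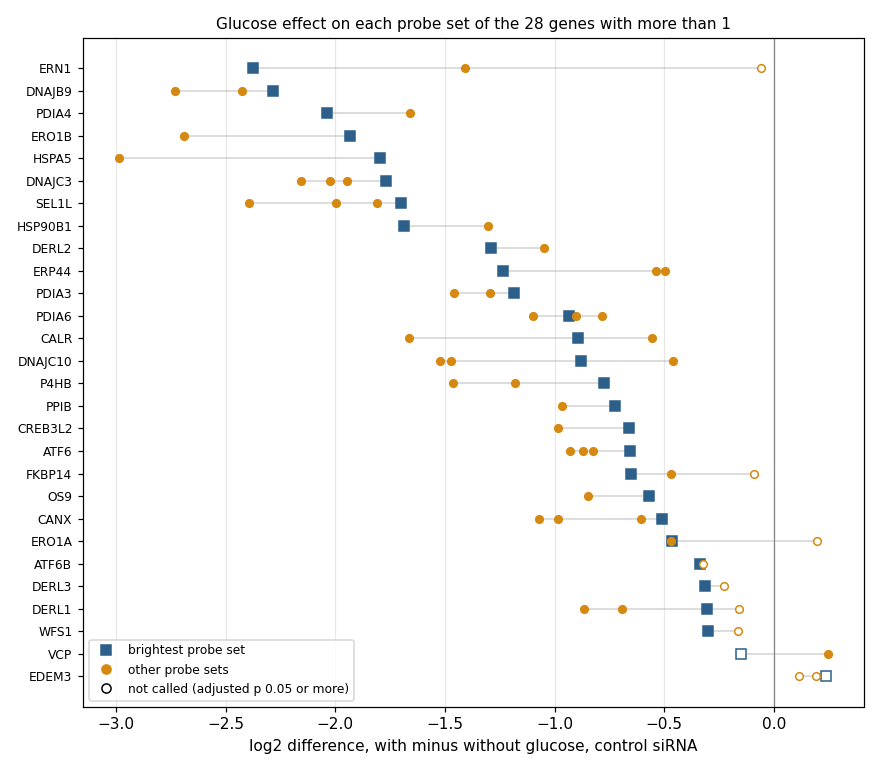
Log2 difference with minus without glucose in control siRNA cells (x axis) on every probe set past the filter of the 28 genes with more than 1. Squares are the brightest probe set of a gene, circles its others, and open symbols were not called. Nearly all points lie left of 0, the dimmer probe set of HSPA5 lies at -2.99 against -1.80 for the brighter one, and the dimmer probe set of VCP lies right of 0.

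Members with an ER stress response element in the promoter window had the larger falls on median. The 10 members with an ERSE or ERSE-II match had a median log2 difference of -1.87 under control siRNA and a range of -2.98 to -0.51. The 29 tested members whose window held neither had a median of -0.88 and a range of -2.38 to 0.24. The ranges overlap widely, and members without a match in the window include ERN1, DNAJB9 and PDIA4, which are among the largest falls. CANX, which has a match, lies among the smaller ones on its brightest probe set. The 3 ERSE-II genes HYOU1, SDF2L1 and HERPUD1 lay next after CRELD2 in the order of the fall. For TGACGTGG the 4 genes with a match had a median of -0.68, against -1.23 for the 35 without it. These medians are of brightest probe sets under control siRNA. Neither the differences between them nor the shares of genes with a motif were tested.

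Further genes of the same pathways, kept in separate lists, were called in both directions. Members and lists were chosen with earlier results of these arrays known. A contrast between them may reflect that choice and was not tested. Of 30 other ER folding genes tested, 14 were lower and 3 higher with glucose in SRC-1 siRNA cells and 15 lower and 4 higher in control siRNA cells, with median log2 differences of -0.18 with SRC-1 siRNA and -0.25 with control siRNA. Those with the smallest p were FKBP11, a prolyl isomerase (-1.28 with SRC-1 siRNA and -1.31 with control siRNA), HSPA13, an HSP70-like protein (-1.32 with SRC-1 siRNA and -1.31 with control siRNA), and UGGT2 (-1.19 with SRC-1 siRNA and -1.25 with control siRNA), a relative of the folding sensor UGGT1. Of 18 other ERAD genes, 7 were lower and 5 higher in each arm, with medians of -0.07 with SRC-1 siRNA and -0.15 with control siRNA. The ubiquitin-conjugating enzyme UBE2J1 fell (-1.06 with SRC-1 siRNA and -1.06 with control siRNA), and the ubiquitin ligase MARCHF6, which also turns over enzymes of sterol synthesis, rose (0.83 with SRC-1 siRNA and 0.94 with control siRNA).

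Of 24 other UPR factors, 12 were lower and 3 higher in SRC-1 siRNA cells and 13 lower and 4 higher in control siRNA cells, with medians of -0.33 with SRC-1 siRNA and -0.42 with control siRNA. Those with the smallest p, DDIT3, ATF3, PPP1R15A and TRIB3, act downstream of PERK and ATF4. DDIT3 (CHOP), a proapoptotic factor, measured 7.39 and 7.42 with glucose, against 11.78 and 11.74 without, in SRC-1 siRNA cells, and 7.30 and 7.52 with glucose, against 11.88 and 11.75 without, in control siRNA cells. That fall, 20.5-fold with SRC-1 siRNA and 21.2-fold with control siRNA, exceeds that of every member. ATF3 fell by 11.6-fold with SRC-1 siRNA and 12.8-fold with control siRNA, PPP1R15A (GADD34), which guides the phosphatase of eIF2, by 5.49-fold with SRC-1 siRNA and 5.63-fold with control siRNA, and TRIB3, an inhibitor of AKT and ATF4, by 3.32-fold with SRC-1 siRNA and 3.10-fold with control siRNA. ATF4 itself fell by 1.82-fold with SRC-1 siRNA and 1.87-fold with control siRNA.

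The knockdown of SRC-1 was set against the same genes in each medium. With glucose, 0 of 43 members were called between SRC-1 siRNA and control siRNA cells, where 0.00736% of all genes (1 gene) were called. That gene was NCOA1, the target, which was also called without glucose and averaged over both media. Without glucose 0 of 43 were called, against 0.0221% of all genes (3 genes), and averaged over both media 0 of 43, against 0.0294% (4 genes), all by limma. At an unadjusted p under 0.05 there were 2 members with glucose, 1 without and 1 averaged, where 676, 386 and 595 of the 13584 genes were under it in these comparisons. Such numbers of members are near the background. The median log2 difference of the members, SRC-1 minus control siRNA, was 0.03 with glucose, 0.0036 without and 0.02 averaged. Members above 0 numbered 29, 25 and 30 of 43 in these 3 comparisons, and among all genes 57.6%, 50.3% and 56.2% were above 0. The 95% intervals, which are not adjusted for the number of tests, reached at most 0.31 log2 units to either side in a single medium and 0.22 averaged. Calls are adjusted over all probe sets tested, so a difference whose interval excludes 0 can still miss a call. FKBP14 is such a case.

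FKBP14 had the smallest unadjusted p among the members in all 3 comparisons. It is an ER prolyl isomerase that acts on collagen. Its brightest probe set measured 8.96 and 8.92 in SRC-1 siRNA cells, against 8.62 and 8.69 in control siRNA cells, with glucose. Without glucose it measured 9.47 and 9.49 in SRC-1 siRNA cells, against 9.30 and 9.31 in control siRNA cells. Both SRC-1 siRNA arrays were above both control siRNA arrays in each medium, by 0.28 ± 0.0676 log2 units with glucose and 0.17 ± 0.0676 without, and by 0.23 ± 0.0478 averaged (SE, unadjusted p = 0.00115, limma adjusted p = 0.675). The difference does not pass the test over all genes. The other probe sets gave averaged log2 differences of 0.20 and 0.26.

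ERN1, the second by p with glucose, was 0.27 ± 0.109 log2 units higher in SRC-1 siRNA cells with glucose (95% interval 0.02 to 0.52, adjusted p = 0.847) and differed by 0.04 ± 0.109 without glucose. Its other probe sets gave 0.11 and -0.02 with glucose. HSPA5 differed by 0.14 ± 0.0676 with glucose and 0.00 ± 0.0676 without. With glucose its dimmer probe set averaged 7.78 in SRC-1 siRNA cells and 7.71 in control siRNA cells. Without glucose that probe set averaged 10.66 in SRC-1 siRNA cells and 10.70 in control siRNA cells. ATF6 differed by -0.18 ± 0.0929 with glucose and -0.02 ± 0.0929 without. The ATF6 signal with glucose was 8.06 and 7.89 in SRC-1 siRNA cells, against 8.23 and 8.10 in control siRNA cells, without overlap and without passing the test (adjusted p = 0.883). The other 3 probe sets of ATF6 had the opposite sign with glucose, at 0.08, 0.08 and 0.06. Without glucose the smallest p after FKBP14 were those of EDEM3 (0.17 ± 0.110), OS9 (0.10 ± 0.0808) and SELENOK (-0.09 ± 0.0731), all with an adjusted p of 1. The other OS9 probe set averaged 9.22 in SRC-1 siRNA cells and 9.20 in control siRNA cells without glucose. Averaged over media, SEL1L had a log2 difference of -0.09 ± 0.0529, while its other 3 probe sets had the opposite sign, at 0.10, 0.10 and 0.06. EDEM3 had an averaged difference of 0.14 ± 0.0776, and its other probe sets gave 0.06 and -0.06.

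**Figure D4:**
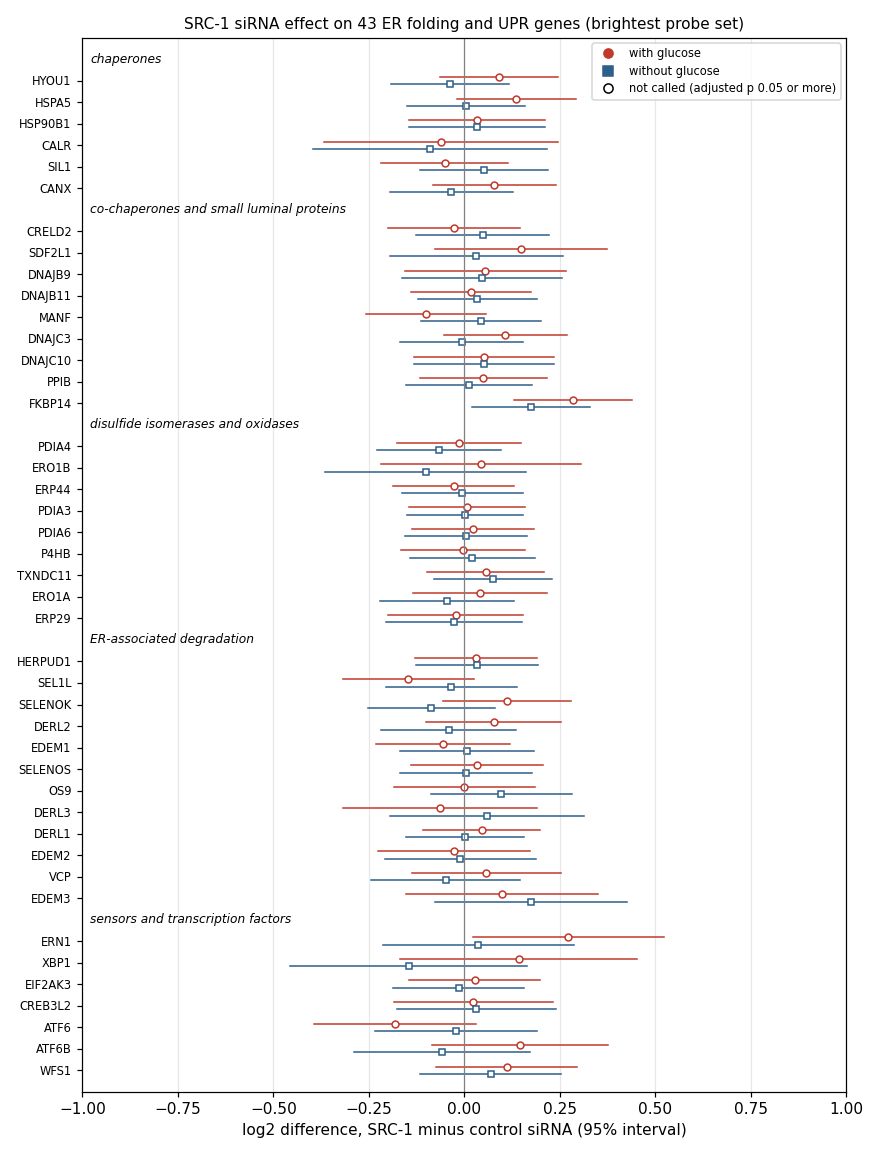
Log2 difference of SRC-1 minus control siRNA (x axis) for the 43 genes by role, with glucose (red circles) and without glucose (blue squares), brightest probe set, 2 arrays a group. Lines are 95% intervals, and all symbols are open because no member was called. The points lie between -0.18 and 0.28, and FKBP14 is the gene whose intervals lie right of 0 in both media.

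Whether the knockdown altered the response to glucose was asked by the interaction of siRNA and glucose. It was called for 0 of 43 members, as for 0% of all genes, and no member had an unadjusted p under 0.05, where 403 of all genes did. The median interaction of the members was 0.02 log2 units, with 26 of 43 above 0, against 56.2% of all genes, and the intervals reached at most 0.44 to either side. The smallest p belonged to SELENOK, at 0.20 ± 0.103 (SE, unadjusted p = 0.0902). Its signal with glucose was 9.95 and 10.00 in SRC-1 siRNA cells, against 9.80 and 9.92 in control siRNA cells. Without glucose it was 11.45 and 11.50 in SRC-1 siRNA cells, against 11.54 and 11.57 in control siRNA cells. The SRC-1 siRNA arrays were higher with glucose and lower without it, at 0.11 with glucose and -0.09 without, with no overlap in either medium. The fall with glucose was 2.83-fold in SRC-1 siRNA cells and 3.24-fold in control siRNA cells. Next came ERN1 (0.24 ± 0.155), XBP1 (0.29 ± 0.192) and MANF (-0.14 ± 0.0970), with 95% intervals of -0.12 to 0.59, -0.15 to 0.73 and -0.37 to 0.08.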

How the data were processed

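RNA of 8 cultures was measured on Affymetrix arrays with 54675 probe sets. The authors deposited 1 value per probe set and array, used here as log2 signal. The base was read from the values, since hybridization spikes of neighbouring dilutions stood 1.91, 1.92 and 2.14 units apart. The authors' background correction, summarization and normalization are not given in the sources used here. Per the labels, RNA was isolated with RNeasy columns. Precision is limited by the number of arrays, and without detection calls or scanner files, changes at dim signals may be compressed.

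Genes were assigned from the platform's annotation with RefSeq identifiers: 41091 had 1 gene, 1801 several, 11721 none listed and 62 were controls. Those with 1 gene and a mean at or above the 40th percentile (log2 4.80) entered 1 limma fit (limma 3.58.1, R 4.3.3) with a mean per group, 24655 probe sets in all, with 4 residual and 4.46 prior degrees of freedom. Tests were two-sided, adjusted by Benjamini-Hochberg over all 24655, with a threshold of 0.05. A gene was read from its brightest probe set, and values are given with the SE of the fit. Permuting 2 arrays against 2 gives p-values of at least 0.333, so calls rest on the shared spread. The fit was tested on simulated arrays.

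The members and lists were chosen with earlier results of these data known. Array values are given for the 12 members with the largest change with glucose under control siRNA, for members not called there or with probe sets called in opposite directions, and for members with the smallest p for the knockdown and the interaction. OS9 and SEL1L, chosen by the knockdown, are given without array values. Replicate numbers were not used to pair the samples in the main fit. Deviations of same-numbered arrays correlated at -0.0762 to 0.12 over 6 pairs of groups. Such low correlations do not show that the cultures were unpaired. Alternatives changed normalization, filter, probe sets, fold threshold, variance model, weights, samples fitted, replicate block and each array left out. Averaging the probe sets of each gene was added after seeing the data.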

Additional observations from a re-analysis of the deposited data

How the results depend on the processing

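The direction of the glucose change kept its sign in the 12 members with the largest falls under each alternative that tested them. Under quantile normalization, median centring, 1 probe set per gene, a mean-dependent prior, array weights and fits of only the groups compared, the same 40 members (control siRNA) and 39 (SRC-1 siRNA) stayed lower. With no filter, ATF6B (adjusted p = 0.0513) and DERL3 (0.088) in control siRNA cells and WFS1 (0.0707) in SRC-1 siRNA cells lost their calls. With the filter at the 60th percentile DERL3 was not tested, and 39 members (control siRNA) and 38 (SRC-1 siRNA) stayed lower. Where a fall of at least 1.5-fold was also required, no fewer than 31 members stayed lower in each arm. Without the _s_at and _x_at probe sets, 35 members could be tested and 31 stayed lower in each arm. ERO1A lost its call with its sign turned, at 0.13 with SRC-1 siRNA (adjusted p = 0.295) and 0.20 with control siRNA (0.113), and DERL3 lost its call in control siRNA cells (0.149). Their median was -0.88 with SRC-1 siRNA (-0.880541) and -0.88 with control siRNA (-0.882845), and 1 was higher, VCP, read there from its other probe set at 0.28 with SRC-1 siRNA (adjusted p = 0.0163) and 0.25 with control siRNA (adjusted p = 0.0299). With all probe sets of a gene averaged, VCP stood at 0.12 with SRC-1 siRNA and 0.049 with control siRNA, ATF6 at 0.0087 for the knockdown with glucose and SEL1L at 0.0434 for the knockdown averaged, each with its sign turned and not called. That averaging also ended the calls of WFS1 in SRC-1 siRNA cells (adjusted p = 0.0777) and DERL3 in control siRNA cells (0.0574). Leaving out 1 array gave 36 to 39 members lower with SRC-1 siRNA and 37 to 40 with control siRNA. With the replicate block 39 members were lower in each arm, DERL3 in control siRNA cells being lost at an adjusted p of 0.0524. The counts of 0 members for the knockdown and the interaction held under each alternative run, while all genes called for the knockdown numbered 1 to 3 with glucose, 1 to 5 without and 1 to 8 averaged. The 3′ minus 5′ difference between SRC-1 and control siRNA was -0.0043, and 0.0036 for beta-actin alone (0.003556), with the sign turned (p = 0.9429, exact permutation). Where no cause is stated, the cause was not tested. Probe sets near the top of the scale or dim ones may understate changes, and 2 arrays a group limit what the knockdown tests can show.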
